A study of Homo sapiens with 4 samples.

Results

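Wnt signalling genes were examined for binding of BRD8 in colorectal cancer cells. The set held 32 genes, out of 19974 protein-coding genes on the chromosomes analysed. It was made of 13 pathway components, which carry the signal, and 19 genes known as targets of TCF factors and beta-catenin, many of which also act on the pathway. The genes were listed by their known roles. No measured value enters the rule, but the list was drawn up with earlier results of these data known. BRD8 is a bromodomain protein of the TIP60/NuA4 histone acetyltransferase complex. It was mapped by chromatin immunoprecipitation and sequencing (ChIP-seq) in HCT116 and SW480. Both are established lines from human colorectal cancers, and each gave 1 ChIP library and 1 input library. Cells of neither line carried a labelled treatment or engineered allele. HCT116 was grown in McCoy's 5A medium and SW480 in Leibovitz's L-15 medium, both with 10% serum, so line and medium cannot be told apart.

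Wnt ligands bind a Frizzled receptor and an LRP co-receptor at the cell surface. Without them, a destruction complex built on axin and APC, with the kinases GSK3 and casein kinase 1, marks beta-catenin for removal. With the signal on, beta-catenin enters the nucleus, joins TCF/LEF factors and recruits BCL9 and Pygopus proteins, and target genes are switched on. In the intestine the pathway maintains the stem cells of the crypt, and nearly all colorectal cancers carry a lesion in it. HCT116 is known for a stabilised form of beta-catenin and SW480 for a truncated APC.

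The peak list of HCT116 held 22303 regions and that of SW480 12874, with median fold enrichments of 3.70 and 3.34. Each peak has a summit, the position of highest enrichment. A gene-end summit is one that lies no more than 1 kb from the first or the last base of the gene, on either side. An inside summit is any other between those bases. Fold and −log10 q are the authors' peak caller's values. The lists give no read totals, so the library depth is unknown. The pileup, the number of overlapping fragments at the summit, and the local background were solved from fold and p, and the median pileup over all peaks was 24 fragments in HCT116 and 26 in SW480. Each line has 1 ChIP library, so differences between lines stand without replicates, and no test was made. Absence from a list shows only that no peak passed the authors' threshold. The labelled tissue could be checked only loosely, since BRD8 peaks do not measure expression. Of 9 colon epithelium markers, EPCAM, KRT8 and CDX2 (33.3%) had a gene-end summit in HCT116 and none had one in SW480. Of all coding genes, 44.0% in HCT116 and 22.1% in SW480 had one. Of 7 markers of other cell types, none had a gene-end summit in either line. Inside summits were found at 4 epithelium markers in HCT116 (44.4%) and 1 in SW480 (11.1%). Among markers of other cell types, 3 had one in HCT116 (VIM, COL1A1 and PDGFRB, 42.9%) and 2 in SW480 (VIM and PDGFRB, 28.6%). The shares of all coding genes were 23.0% and 12.5%. These few markers thus say little about the label.

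RefSeq promoter sequences were available for 21 of the 32 genes, in 28 entries. Shown first are the 4 genes with a 300-base promoter window wholly under an HCT116 region (for CSNK1A1 the outer of its 2 annotated starts, both covered), followed by 2 targets that hold a TCF/LEF motif, SP5 and DKK1. Each line gives the 250 bases before the annotated start, 5′ to 3′ on the gene's strand, from RefSeq (GRCh38.p14). Capitals mark matches, on either strand, to TCF/LEF (CTTTGAT or its variant CTTTGTT), ETS (CCGGAAG), NRF1 (GCATGCGC), E2F (TTTCGCGC), E-box (CACGTG) and GC box (GGGCGG) motifs.
CSNK1A1 (chr5:149551440-149551689, minus strand): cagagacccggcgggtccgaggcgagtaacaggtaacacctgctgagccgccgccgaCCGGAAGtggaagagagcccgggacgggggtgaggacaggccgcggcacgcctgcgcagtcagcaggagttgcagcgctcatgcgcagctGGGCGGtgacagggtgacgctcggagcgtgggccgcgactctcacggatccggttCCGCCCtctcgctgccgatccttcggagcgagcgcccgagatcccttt
PYGO2 (chr1:154961783-154962032, minus strand): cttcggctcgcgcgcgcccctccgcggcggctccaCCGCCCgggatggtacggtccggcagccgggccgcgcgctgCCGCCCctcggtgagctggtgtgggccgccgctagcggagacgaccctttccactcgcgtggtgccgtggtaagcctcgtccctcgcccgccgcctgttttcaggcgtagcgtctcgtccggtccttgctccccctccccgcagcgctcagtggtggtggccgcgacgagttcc
TCF7L1 (chr2:85133142-85133391, plus strand): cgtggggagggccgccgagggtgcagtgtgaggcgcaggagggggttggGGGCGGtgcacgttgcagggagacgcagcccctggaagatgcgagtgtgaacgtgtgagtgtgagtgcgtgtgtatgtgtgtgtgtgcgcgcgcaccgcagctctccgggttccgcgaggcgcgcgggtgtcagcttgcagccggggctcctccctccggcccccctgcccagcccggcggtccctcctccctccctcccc
CD44 (chr11:35138921-35139170, plus strand): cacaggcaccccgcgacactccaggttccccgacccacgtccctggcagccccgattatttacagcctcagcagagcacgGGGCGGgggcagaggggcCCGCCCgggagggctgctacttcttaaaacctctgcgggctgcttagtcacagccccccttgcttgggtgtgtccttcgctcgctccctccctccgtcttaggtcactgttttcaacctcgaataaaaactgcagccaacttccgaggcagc
SP5 (chr2:170715087-170715336, plus strand): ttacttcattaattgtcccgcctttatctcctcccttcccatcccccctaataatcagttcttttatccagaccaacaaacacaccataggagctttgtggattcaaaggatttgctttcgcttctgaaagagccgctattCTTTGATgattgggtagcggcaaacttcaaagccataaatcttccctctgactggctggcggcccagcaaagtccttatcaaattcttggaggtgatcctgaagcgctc
DKK1 (chr10:52314031-52314280, plus strand): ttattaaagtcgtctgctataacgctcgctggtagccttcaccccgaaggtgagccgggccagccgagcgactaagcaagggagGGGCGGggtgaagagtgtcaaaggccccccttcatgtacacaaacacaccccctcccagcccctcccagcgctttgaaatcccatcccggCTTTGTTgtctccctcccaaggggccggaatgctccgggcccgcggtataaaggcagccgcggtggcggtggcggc

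The capitals in CSNK1A1, PYGO2, TCF7L1 and CD44 are GC boxes, with 1 ETS match in CSNK1A1. In SP5 they are a TCF/LEF match, and in DKK1 a TCF/LEF match and a GC box. Over the full 300-base windows, a GC box occurred in 18 of the 28 entries of the Wnt genes and in 56.3% of all 22132 coding-gene promoters. An ETS match occurred in 3 entries, against 12.8% of all promoters. A TCF/LEF match occurred in 4 entries, against 6.18% of all promoters, where CTTTGAT was found in 1.99% and CTTTGTT in 4.30%. The 4 entries were SP5, DKK1, an internal start of TCF7 and an internal start of TCF7L2. The NRF1, E2F and E-box motifs were in none of the 28 entries, and in 3.74%, 0.714% and 8.34% of all promoters. A motif is a match of letters and not a shown site.

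Promoter composition was also set beside BRD8. The 11 entries with a summit within 1 kb of their start in either line had a median GC content of 65.7% and a median CpG ratio (observed over expected) of 0.830. The 17 entries without one had 63.7% and 0.666. Over all coding genes the 10142 promoters with a summit had 65.7% and 0.855, and the 11990 without had 58.0% and 0.442. Unbound Wnt promoters thus had a higher median CpG ratio than unbound promoters in general. LRP5 (86.7% GC), EPHB2 (83.0%), AXIN1 (78.0%), FZD5 (77.0%) and APCDD1 (76.0%) were GC-rich and had no summit within 1 kb of their starts.

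At gene ends within 1 kb, the share of Wnt genes with a summit was close to that of all coding genes in HCT116 and below it in SW480. In HCT116, 15 of 32 genes (46.9%) had a gene-end summit, against 44.0% of all coding genes. In SW480, 4 of 32 (12.5%) had one, against 22.1%. Both readings depend on the window. At 500 bp the HCT116 share was 18.8%, well below the 34.9% of all coding genes, and at 2 kb the SW480 share was 28.1%, above the 25.4% of all coding genes. The median fold of the strongest gene-end peak was 3.79 in HCT116, against 4.87 over all bound coding genes, and 2.46 in SW480, against 3.40. The highest HCT116 value was 6.81 at ZNRF3, and the highest SW480 value 3.98 at GSK3B.

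**Figure D1:**
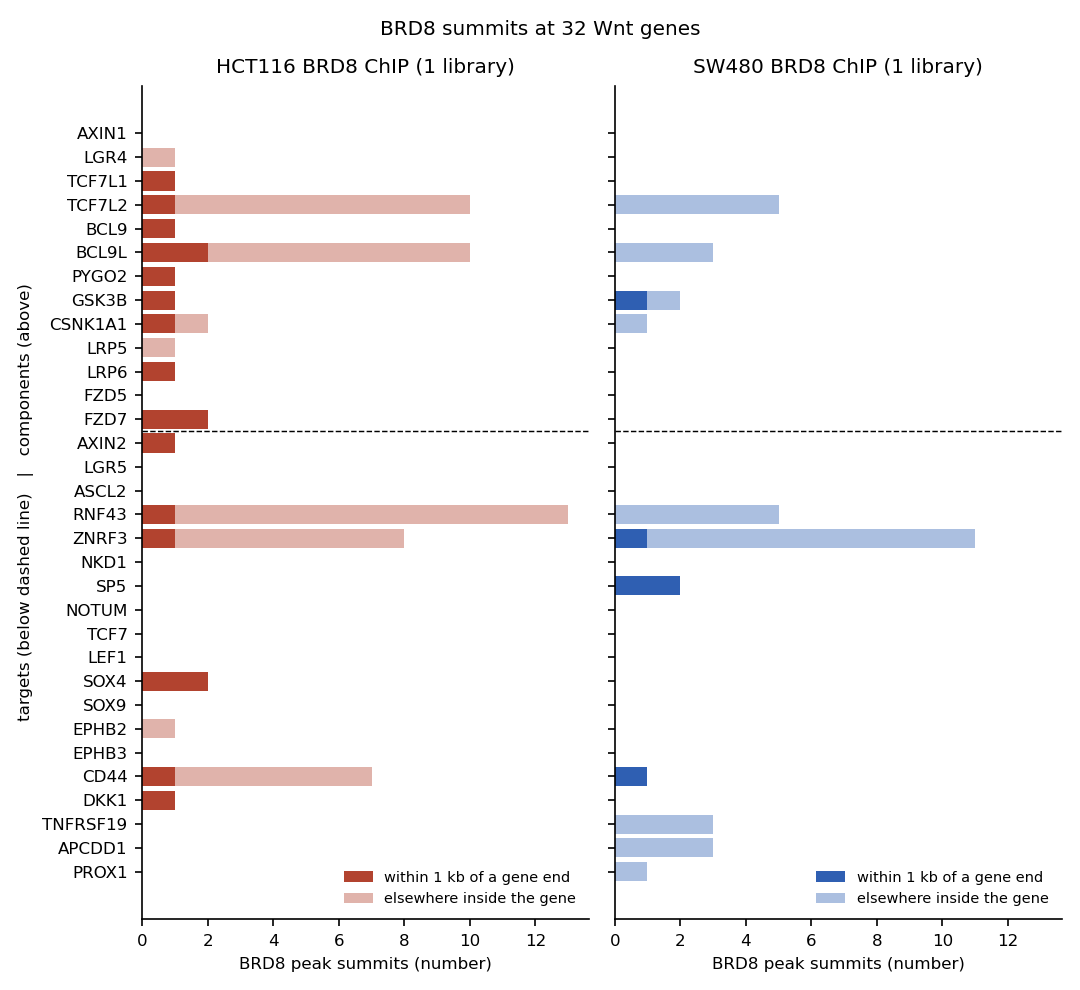
Number of BRD8 peak summits at each of the 32 Wnt genes (x axis) in HCT116 (left) and SW480 (right), 1 library each; dark bars are summits within 1 kb of a gene end, pale bars those elsewhere inside the gene, and the dashed line parts components from targets. RNF43 has 13 summits in HCT116 and ZNRF3 11 in SW480, while 10 genes have none in either line.

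Within 1 kb, components were bound at their ends more often than targets in HCT116 and not in SW480. In HCT116, 9 of 13 components (69.2%) and 6 of 19 targets (31.6%) had a gene-end summit, on either side of the 44.0% of all genes. In SW480, 1 of 13 components (7.69%) and 3 of 19 targets (15.8%) had one. The median fold of the bound HCT116 ends was 4.45 for components and 3.29 for targets, and the ranges overlapped (2.77 to 6.15, and 2.64 to 6.81). The classes rest on textbook roles, and the difference was not tested. The difference narrowed with stricter peaks. With the HCT116 list cut to the SW480 number of peaks, 5 components (38.5%) and 5 targets (26.3%) were bound in HCT116, against 37.4% of all coding genes, and at a −log10 q of at least 5 the counts were 5 and 4. With a 500 bp window, 5 components and 1 target were bound. Among further Wnt genes, 61.1% of 18 TCF targets were bound in HCT116. Shares were higher for 20 genes of the destruction complex and its regulators (75.0%) and 14 nuclear cofactors (71.4%). They were lower for 17 receptor-level genes (35.3%), 21 ligand and ligand-release genes (23.8%) and 12 secreted inhibitor genes and their receptors (16.7%).

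Among the receptors, the Frizzled gene FZD7 and the co-receptor gene LRP6 carried HCT116 peaks at their ends. LRP6 (chromosome 12, 12116025 to 12267044, GRCh38) had 1 summit at a fold of 6.15, the highest of any component, with a pileup of 51 over a background of 7.46. FZD7 (chromosome 2, 202033855 to 202038441) had a summit near each end, at folds of 3.63 and 4.45. LRP5, its co-receptor partner, had a single inside summit at a fold of 5.02 with a pileup of 53. LGR4, an R-spondin receptor, had 1 inside summit at 3.37, 2336 bp from its annotated start. In SW480 none of these genes had a summit. FZD5, another Frizzled gene, had none in either line, and the nearest HCT116 summit lay 22635 bp away.

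Of the destruction complex, the kinases were bound and the scaffold was not. CSNK1A1 (chromosome 5, 149492982 to 149551439), casein kinase 1 alpha, had an HCT116 region of 3365 bp over its start with a fold of 4.54. An overlapping SW480 region had a fold of 4.09, but its summit lay 1667 bp from the gene end and so counted as inside. It was 593 bp downstream of the inner annotated start. The pileups were 40 in HCT116 and 42 in SW480. The HCT116 summit also lay within 1 kb of ARHGEF37, the adjoining gene. GSK3B (chromosome 3, 119821321 to 120094447), the kinase that marks beta-catenin for removal, was bound on both sides of its start. In HCT116 the summit lay 883 bp downstream at a fold of 2.77. In SW480 a summit 942 bp upstream had a fold of 3.98, and another 1072 bp downstream had 5.06, the highest SW480 fold of any component. An HCT116 region overlapped the upstream one, with its summit 591 bp away and beyond the limit. The upstream SW480 summit is also at the end of GSK3B-DT, a divergent noncoding transcript. Of the 4 components with summits in both lines, only GSK3B had its higher fold in SW480. AXIN1, the scaffold, had no summit in either line, and the nearest lay 49334 bp away in HCT116 and 52473 bp away in SW480.

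Of the nuclear genes classed as components, all had an HCT116 gene-end summit, against 44.0% of all coding genes. This rests on the class, the window and the peak threshold. At a −log10 q of at least 5, only PYGO2 and BCL9L among these components kept a gene-end summit, and TCF7L1, TCF7L2 and BCL9 did not. TCF7 and LEF1, TCF/LEF factors classed as targets, had no summit in either line. The gene-end summits of PYGO2, BCL9 and TCF7L2 lay 726, 747 and 760 bp from the start, beyond a 500 bp window. PYGO2 (chromosome 1, 154957026 to 154961782), a reader of methylated histone H3 in the beta-catenin complex, had a region of 2041 bp at a fold of 5.62 and a pileup of 42. Its summit is shared with PYGO2-AS1, an antisense transcript. BCL9L and BCL9, which link beta-catenin to Pygopus, had strongest gene-end folds of 5.18 and 3.79. TCF7L1, a TCF factor that mostly represses, had a fold of 3.41 with the summit 80 bp after its start. TCF7L2, the main TCF of the intestinal epithelium, had only 3.03 at its end and its stronger peaks inside. In SW480 none of these genes had a gene-end summit, and TCF7L2 and BCL9L had inside summits.

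**Figure D2:**
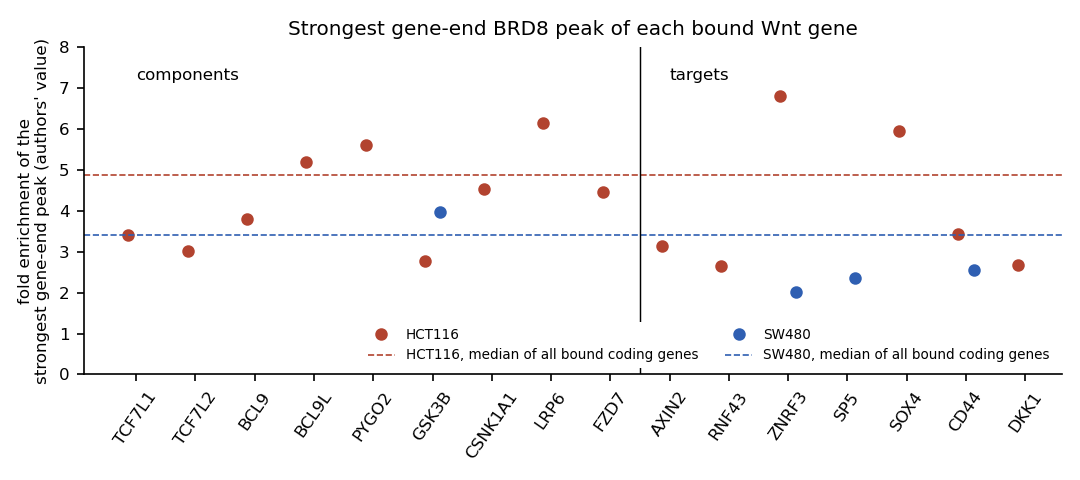
Fold enrichment (y axis, authors' values) of the strongest gene-end BRD8 peak of each Wnt gene with one, HCT116 in red and SW480 in blue, components left and targets right; dashed lines are the medians over all bound coding genes. Of the 15 HCT116 genes 5 lie above the HCT116 median of 4.87, and of the 4 SW480 genes GSK3B alone lies above the SW480 median of 3.40.

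Of the targets that inhibit the pathway, RNF43, ZNRF3, AXIN2 and DKK1 had gene-end summits in HCT116, and of these ZNRF3 also in SW480. NKD1, NOTUM and APCDD1 had no HCT116 summit. ZNRF3 (chromosome 22, 28883572 to 29057488), a membrane ubiquitin ligase that removes Frizzled receptors, had a gene-end fold of 6.81 in HCT116 and 2.01 in SW480. The summits were 32 bp apart. The pileups were similar, at 41 in HCT116 and 34 in SW480, while the backgrounds were 5.16 and 16.4. RNF43, its close relative, had a gene-end summit in HCT116 alone, at a fold of 2.64. That summit lay at the far end from its start, within 1 kb of TSPOAP1-AS1. AXIN2, the feedback scaffold, had 1 HCT116 summit 615 bp outside the gene at a fold of 3.14. DKK1, a secreted blocker of LRP co-receptors, had 1 HCT116 summit, 786 bp beyond the end opposite its start, at a fold of 2.68 with a pileup of 16.

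Further target genes had gene-end summits. SOX4, a transcription factor of progenitor cells, had 2 HCT116 summits, 117 bp and 877 bp after its start, at folds of 2.65 and 5.94. CD44 (chromosome 11, 35139171 to 35232402), the hyaluronan receptor, was bound in both lines. Its HCT116 summit lay 752 bp after the start at a fold of 3.44, and its SW480 summit 291 bp before it at 2.56, with pileups of 38 and 37. The SW480 summit is also at the end of CD44-DT. SP5 (chromosome 2, 170715337 to 170718078), a transcription factor gene with the TCF/LEF match shown above, was the only gene of the set with a gene-end summit in SW480 alone. It had 1 summit 587 bp before its start at a fold of 2.37, shared with LINC01124, and 1 at the opposite end at 2.07. Both peaks were weak, with −log10 q values of 2.47 and 1.39. No SW480 region overlapped the promoter window that holds the match. The nearest HCT116 summit lay 52418 bp from the gene.

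Both lines had a gene-end summit at 3 Wnt genes, GSK3B, ZNRF3 and CD44 (9.38%), against 20.3% of all coding genes. HCT116 alone had one at 12 and SW480 alone at 1. The gene-end regions counted at GSK3B did not overlap between lines, and 2 genes remained where an overlap of 1 bp was required. At ZNRF3 the SW480 gene-end peak had a −log10 q of only 1.66, and at a −log10 q of at least 2 it drops out. The 3 shared genes were 20.0% of the HCT116 genes of the set, against 46.1% over all coding genes, and 75.0% of the SW480 genes, against 91.8%. With the 2 kb window the SW480 count was 9, because CSNK1A1, RNF43, TNFRSF19, APCDD1 and NOTUM entered. The NOTUM summit lay 1790 bp outside the gene at a fold of 2.08. Of all summits, the last within the 1 kb limit was that of GSK3B in SW480, at 942 bp. The first beyond it were in ZNRF3 in HCT116, at 1025 bp and a fold of 3.44, and in GSK3B in SW480, at 1072 bp.

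Summits near annotated starts tended to lie further from them at the Wnt genes with a promoter entry. In HCT116 the 9 gene-end summits within 1 kb of an annotated start, at 8 of the genes, had a median distance of 747 bp, against 270 bp for 7841 summits of all coding genes. Of the 9, 6 lay over 500 bp away (66.7%), against 25.5%. In SW480 the 3 gene-end summits, at GSK3B, SP5 and CD44, had a median of 587 bp, against 296.5 bp over all. The SW480 inside summits of CSNK1A1 and TNFRSF19 within 1 kb of an inner start are not among them. The HCT116 summits of TCF7L2, CD44, PYGO2 and GSK3B, and 1 of those of SOX4, lay between 726 and 883 bp downstream of the start. TCF7L1 had its summit next to the start. These are 12 summits of 9 genes, given as a description with no test. Bound genes without a promoter entry are left out. Their nearest HCT116 summits lay 69 bp from a gene end at LRP6, 184 bp at BCL9L and 445 bp at FZD7. At AXIN2 and ZNRF3 they lay 615 and 681 bp away.

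**Figure D3:**
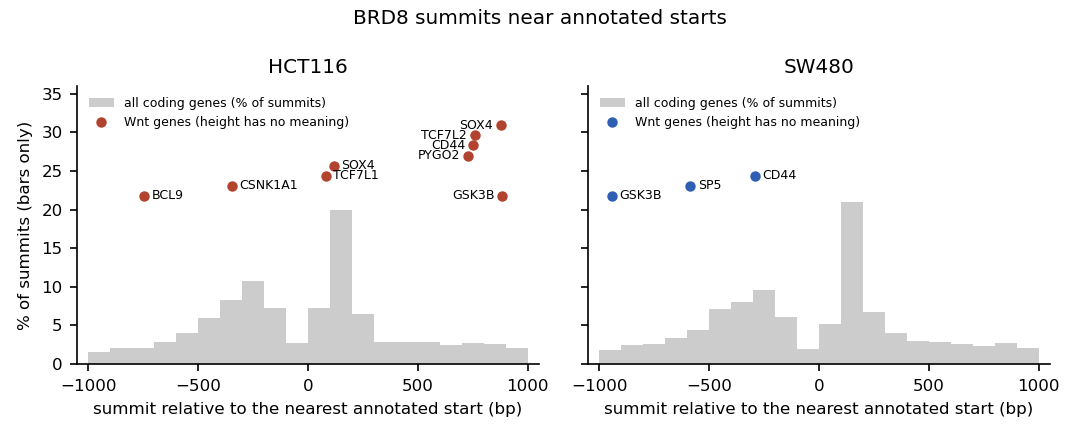
Position of gene-end BRD8 summits relative to the nearest annotated start (x axis, bp, negative upstream) in HCT116 (left) and SW480 (right); grey bars show the percentage of summits of all coding genes per 100 bp, and points the Wnt genes at arbitrary height. In HCT116 the summits of the Wnt genes with a promoter entry lie at a median distance of 747 bp, outside the grey maximum just after the start.

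Inside the genes, the share of Wnt genes with a summit was slightly above that of all coding genes in HCT116 and further above it in SW480. In HCT116, 9 of 32 genes (28.1%) had an inside summit, against 23.0% of all coding genes, and in SW480 9 of 32 (28.1%), against 12.5%. Gene length bears on this, since the median length was 61.7 kb for the set and 24.2 kb over all coding genes. Among genes of at least 50 kb, 8 of 18 (44.4%) in HCT116 and 7 of 18 (38.9%) in SW480 had one, against 34.8% and 24.3% of all such genes. Per 100 kb of gene interior the set had 1.84 summits in HCT116 and 1.28 in SW480, against 0.689 and 0.409. Most came from few genes. The top 3 held 63.0% of the inside summits in HCT116 and 62.5% in SW480. Without them the densities were 0.775 in HCT116 and 0.586 in SW480, against 0.673 and 0.392 over all coding genes without their own top 3. The trims are unlike, since the top 3 of all coding genes held only 2.48% of inside summits in HCT116 and 4.31% in SW480. In HCT116, inside summits were found at 5 of 13 components (38.5%) and 4 of 19 targets (21.1%). In SW480 they were found at 4 components (30.8%) and 5 targets (26.3%). Components were longer, with a median of 84.7 kb against 40.0 kb for targets. Among genes of at least 50 kb, 4 of 9 in each class (44.4%) had one in HCT116. In SW480 33.3% of such components and 44.4% of such targets did. Per 100 kb of interior, components had 1.53 summits in HCT116 and 0.766 in SW480, and targets 2.18 and 1.84. The top 3 genes of each class held from 81.8% to 96.2% of these.

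Runs of summits stood at RNF43, ZNRF3, TCF7L2, BCL9L and CD44. RNF43 (chromosome 17, 58352500 to 58417534) had 13 summits in HCT116, and 30 of all coding genes had more, with no allowance for length. Their folds ran from 2.33 to 5.33 with a median of 3.44, and pileups from 18 to 41. The 12 inside summits lay from 36.3 to 62.2 kb from the low-coordinate end, and the start is at the high-coordinate end. The strongest region was 5820 bp wide. In SW480 RNF43 had 5 summits with folds from 2.69 to 4.52, from 31.8 to 63.4 kb, and 3 of their regions overlapped an HCT116 region. Per 100 kb of interior RNF43 held 19.0 inside summits in HCT116 and 7.93 in SW480.

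ZNRF3 was the only gene of the 5 with more summits in SW480. It had 8 in HCT116 and 11 in SW480, and only 45 coding genes had more in SW480. The order rests on weak SW480 peaks, since at a −log10 q of at least 2 both lines had 8, and at 5 HCT116 had 5 and SW480 4. Median folds were 3.52 in HCT116 and 3.01 in SW480, and median pileups 25.5 and 23. Of its regions, 5 in HCT116 and 6 in SW480 overlapped one of the other line. The HCT116 sites 35.5, 40.2, 93.7 and 121.6 kb into the gene recurred in SW480. At the last of these the HCT116 fold was 3.35 and the SW480 folds were 4.86 and 3.01. A summit 148.1 kb in, at a fold of 5.27 and within 1 kb of ZNRF3-AS1, was found in HCT116 alone.

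TCF7L2 (chromosome 10, 112950247 to 113167678) had 10 summits in HCT116 and 5 in SW480, mostly at different places. HCT116 had 4 within the first 8 kb after the start, the strongest at a fold of 5.57 in a region of 3730 bp. It had 6 more from 120.7 to 143.2 kb, led by one at a fold of 4.54 with the highest pileup of the set, 66 fragments. SW480 had 1 summit 5.40 kb from the start at 3.71, which overlapped the wide HCT116 region. Its others lay at 57.5 kb and from 105.5 to 107.8 kb, where HCT116 had none. None of the 5 SW480 peaks reached a −log10 q of 5, and 5 of the 10 HCT116 peaks did.

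BCL9L (chromosome 11, 118896136 to 118925926) had 10 HCT116 summits, 9 within the gene and 1 lying 184 bp outside it. It held 28.8 inside summits per 100 kb, the highest inside density of the 5. Their folds ran from 2.50 to 5.34, and their regions covered 13.3 kb. Its 3 SW480 summits all overlapped HCT116 regions. There the pileups were 36, 28 and 30 fragments in HCT116 and 65, 44 and 38 in SW480. The backgrounds ran from 5.79 to 6.08 in HCT116 and from 15.8 to 22.3 in SW480, and the folds from 4.27 to 5.34 in HCT116 and from 2.32 to 2.84 in SW480. CD44 had 7 HCT116 summits, all within the first 31 kb, with folds from 2.86 to 4.54. In SW480 only the gene-end summit was called there.

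**Figure D4:**
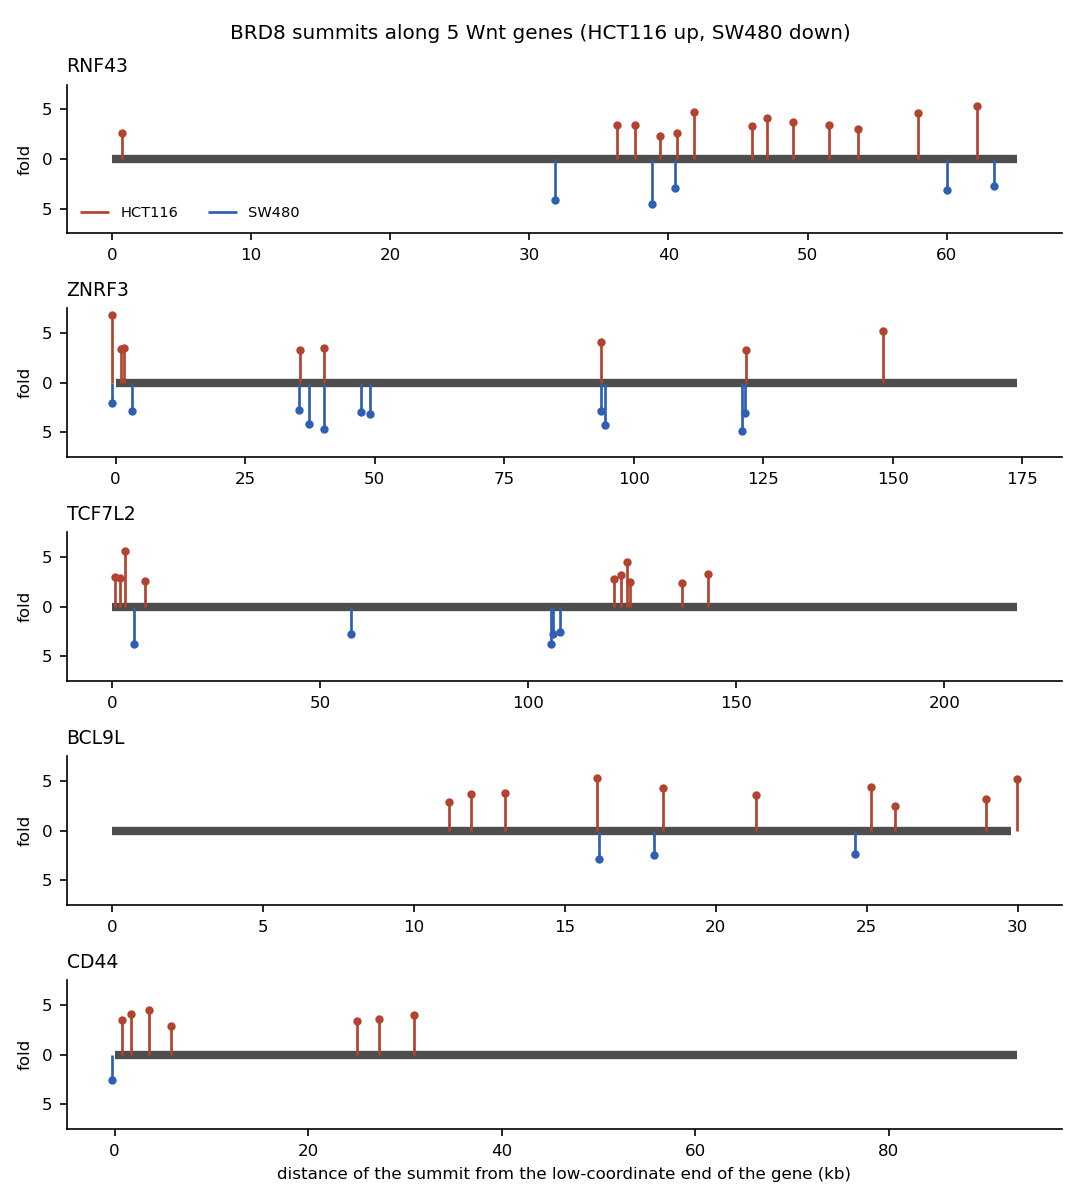
BRD8 summits along RNF43, ZNRF3, TCF7L2, BCL9L and CD44, at their distance from the low-coordinate end of the gene (x axis, kb); stem height is the fold enrichment (y axis), HCT116 upward in red and SW480 downward in blue, and the grey bar is the gene. RNF43 and BCL9L carry clusters of HCT116 summits, ZNRF3 has sites that recur in both lines, and the TCF7L2 summits of the lines mostly lie apart.

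Other targets had inside summits in SW480 alone. TNFRSF19, which encodes the receptor TROY of intestinal stem cells, had 3 in the first 8.70 kb, at folds of 5.31, 4.91 and 2.09. The first had a pileup of 26 over a background of 4.09, and its fold stood at or above 95.1% of the SW480 list. APCDD1, a membrane inhibitor of Wnt reception, had 3 in the first 6.61 kb, at folds from 2.88 to 3.33. PROX1, a homeobox transcription factor, had 1 at a fold of 3.90. The nearest HCT116 summits lay 195184 bp from TNFRSF19, 520496 bp from APCDD1 and 172860 bp from PROX1. EPHB2, a receptor that positions cells along the crypt, had 1 inside summit in HCT116 alone at a fold of 4.25.

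Over ends and interior together, 18 of the 32 genes had a summit in HCT116 and 11 in SW480. Of all 19974 coding genes, 10451 had one in HCT116 and 5944 in SW480. Among the Wnt genes, 7 had a summit in both lines, 11 in HCT116 alone and 4 in SW480 alone. This split by line was not compared with that of all coding genes. The 4 of SW480 alone were SP5, TNFRSF19, APCDD1 and PROX1, all targets. At 10 genes (31.2%) neither line had a summit, against 44.6% of all coding genes. They were the components AXIN1 and FZD5 and the targets LGR5, ASCL2, NKD1, NOTUM, TCF7, LEF1, SOX9 and EPHB3. LGR5, the stem cell receptor, had its nearest summits 75438 bp away in HCT116 and 76870 bp away in SW480, both at ZFC3H1. ASCL2, a stem cell transcription factor, had them 130341 bp and 54644 bp away. SOX9, a crypt transcription factor, had them 212955 bp and 90603 bp away. LEF1, a TCF/LEF family factor, had them 57485 bp and 327906 bp away.

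Regions of the lines with summits at the same gene overlapped in 16 pairs at 7 genes, and some pairs share a region. The HCT116 region over the upstream GSK3B summit of SW480 is not among them, since its own summit lay beyond the 1 kb limit. The HCT116 fold was higher in 12 pairs and the SW480 fold in 4, with a median ratio of HCT116 to SW480 of 1.40. Over all coding genes the HCT116 fold was higher in 88.7% of 6550 such pairs, against 75.0% at the Wnt genes, and the median ratio was 1.76. The 4 were at GSK3B, RNF43 and ZNRF3. Summits lay within 300 bp of each other in 8 pairs. At inside summits of the set, 21.7% in HCT116 and 43.8% in SW480 overlapped a region of the other line, against 16.5% and 35.2% over all coding genes. At gene-end summits, 4 of 18 in HCT116 (22.2%) and 3 of 5 in SW480 (60.0%) did, against 38.2% and 88.7%.

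**Figure D5:**
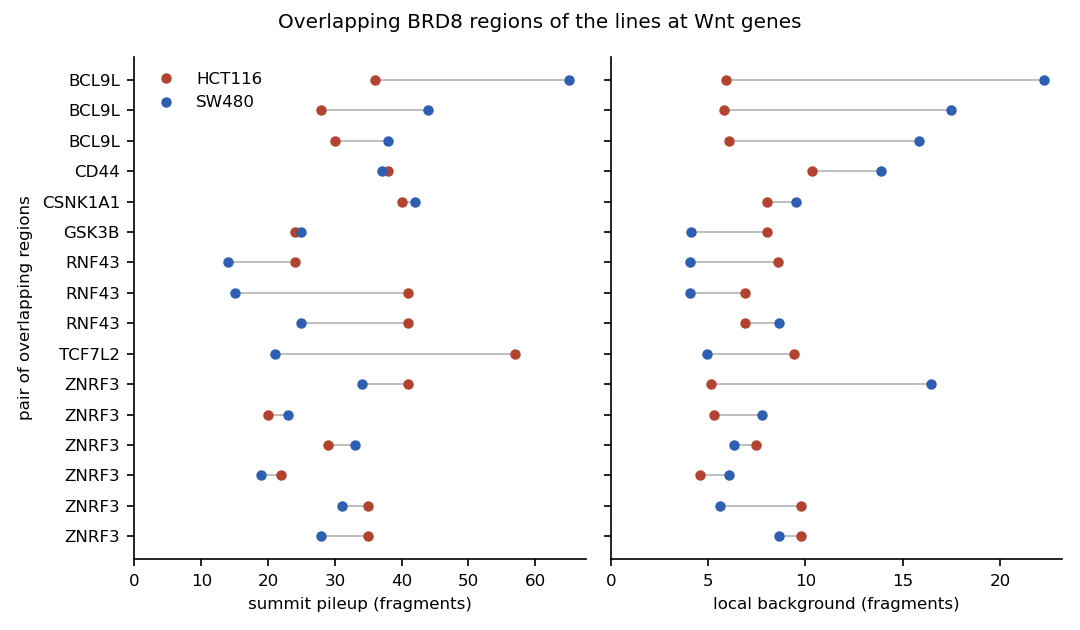
Summit pileup (left, fragments) and local background (right, fragments) of the 16 pairs of overlapping BRD8 regions at Wnt genes, HCT116 in red and SW480 in blue, 1 row per pair. At the 3 BCL9L pairs SW480 is higher in both measures, and at the ZNRF3 gene end the backgrounds are 5.16 and 16.4 at pileups of 41 and 34.

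The rest of the pathway was described from a list of 102 further Wnt genes. Of these, 49 (48.0%) had a gene-end summit in HCT116 and 20 (19.6%) in SW480, against the 44.0% and 22.1% of all coding genes. Genes of the destruction complex and its regulators were bound at 15 of 20 in HCT116 and 7 of 20 in SW480. TNKS2, a tankyrase that marks axin for removal, had folds of 7.80 and 2.73, and PPP2R1A, a phosphatase scaffold, had 6.51 in HCT116 alone. CSNK1D (6.22 in HCT116, 4.80 in SW480) and GSK3A (4.81 in HCT116, 3.94 in SW480) had the highest SW480 folds of the group. CTNNB1, which encodes beta-catenin, had a gene-end fold of 5.52 in HCT116 and only 2 inside summits in SW480. APC had no summit at either place in either line.

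Nuclear cofactors were bound at 10 of 14 in HCT116 and 3 of 14 in SW480. SMARCA4, a chromatin remodelling ATPase, had folds of 6.03 and 2.63, and CDC73, a subunit of the PAF1 complex, 5.98 in HCT116 alone. CHD8 (5.44 in HCT116, 3.38 in SW480) and PARP1 (4.87 in HCT116, 2.96 in SW480) were highest in SW480. Further TCF targets were bound at 11 of 18 and 6 of 18. SLC12A2, an ion cotransporter, had the highest fold of the list at 10.1 in HCT116, with 2.51 in SW480. BIRC5, the survivin gene, had 6.91 in HCT116 alone. CCND1, encoding cyclin D1, had 3.93 in HCT116 and 3.76 in SW480, and MYC 2.94 in HCT116 and 2.83 in SW480, the highest SW480 folds of these targets.

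Counts were lower for ligands and secreted inhibitors. Of 21 ligand and ligand-release genes, 5 had a gene-end summit in HCT116 and 3 in SW480. WNT2B had folds of 6.25 and 2.38, PORCN, the acyltransferase of Wnt ligands, 5.48 in HCT116 alone from a summit shared with EBP, and WLS, their carrier, 3.25 and 2.96. Of 17 receptor-level genes, 6 and 1 were bound. FZD2 and RYK led in HCT116 at 4.65 and 4.38, and FZD3 had a summit in SW480 alone at 2.80. Of 12 secreted inhibitor genes and their receptors, KREMEN2 at 5.34 and DKK4 at 4.49 were bound in HCT116 and none in SW480. The KREMEN2 summit is shared with PAQR4 and the DKK4 summit with VDAC3.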

How the data were processed

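BRD8 ChIP-seq peak lists of HCT116 and SW480 cells were analysed, 1 per ChIP library, without the inputs. The authors used Trimmomatic 0.33, Bowtie2 2.4.1, MACS2 and deepTools with GRCh38, per the submitters' processing notes. For read filters, the sources used here say nothing. Each deposited list gives a fold enrichment (ratio to local background at the summit), a −log10 p-value, a −log10 q-value, a score derived from that q, and a summit offset. The smallest deposited −log10 q corresponds to a q of 0.05. Peaks were not pooled over samples.

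Chromosomes 1 to 22 and X were kept. Gene ends were those of RefSeq (GRCh38.p14), with 19974 coding genes. A summit that lay near several genes was counted for each. Pileup and background were solved from the deposited fold and p under a Poisson model, for 99.99% of HCT116 and 99.98% of SW480 peaks within a relative tolerance of 0.0001, by code tested on simulated data. Python 3.11.15, pandas 2.3.3 and SciPy 1.17.1 were used. The genes, classes and lists were chosen with earlier results of these data known. Named genes are all 32 of the set, and of the other Wnt genes the 2 of highest gene-end fold per role and line and those bound in SW480 alone; CTNNB1 and APC were added after their values were seen. Alternatives covered the peak threshold, list length, window, region overlap and class.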

Additional observations from a re-analysis of the deposited data

How the results depend on the processing

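Each line has 1 ChIP library, so no difference between lines could be checked against replicates. No paired analysis was possible because each group has 1 sample. Of 136 alternative values for 23 results, 99 stayed within 1.5 times the value reported. Gene-end counts were small and moved most. At a −log10 q of at least 5, gene-end summits were found at 9 Wnt genes in HCT116 (5 components) and 1 in SW480 (0 targets), and 0 in both lines; 36.6% and 14.5% of all coding genes had one. With the HCT116 list cut to the SW480 number of peaks, 5 of 13 components and 5 of 19 targets were bound in HCT116, and 2 genes in SW480 alone. With a 500 bp window the counts were 6 in HCT116 (5 components, 1 target), 2 in SW480 (0 components), 0 in both, 6 in HCT116 alone and 2 in SW480 alone, and 34.9% of all coding genes in HCT116 and 17.0% in SW480 had a summit. With 2 kb they were 9 in SW480 (2 components, 7 targets), 5 in both and 4 in SW480 alone. Counting any base of a region gave 5 targets in SW480 and 2 genes in SW480 alone. With the targets that act in the pathway counted as components, 13 of 23 components (56.5%) and 2 of 9 targets (22.2%) were bound in HCT116. In SW480 this gave 2 of 23 components (8.70%) and 2 of 9 targets (22.2%). With peaks held to a −log10 q of 2 or more, each line had 8 summits at ZNRF3, and with 5 or more HCT116 had 5 and SW480 4. The following settings were chosen after seeing the data. Without the 3 genes of most summits, the inside density was 0.775 per 100 kb in HCT116 and 0.586 in SW480; restricting to genes of at least 50 kb left 8 and 7 genes with an inside summit.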
